A study of Mus musculus with 4 samples.

Results

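The comparison is of lymphoid-gated with stem and progenitor cells from the marrow of SFRP5-transgenic mice, made with 1 CLP array and 1 LSK array, which are 2 of the 4 arrays of the series. Its members are the arrays titled SFRP5 CLP and SFRP5 LSK, and its features are the 39321 of 55681 probes that the scanner software called well above background on at least 1 of them. Of these probes, 33833 passed on both arrays, 2528 on the LSK array alone and 2960 on the CLP array alone.

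The series set adult SFRP5-transgenic mice beside their wild-type (WT) littermates to find genes that respond to SFRP5, a secreted protein that binds Wnt ligands and keeps them from their receptors. From fresh bone marrow, LSK cells (negative for lineage antigens, high for c-kit, positive for Sca-1) and a fraction enriched for common lymphoid progenitors, CLP (lineage-negative, low for c-kit and for Sca-1, positive for IL7Rα), were sorted in each genotype. The 4 groups, SFRP5 LSK, SFRP5 CLP, WT LSK and WT CLP, have 1 array each. Both arrays compared below are of transgenic mice, so their difference is one between sorts within that genotype, and the WT pair of arrays is given beside it. The sources used here give neither the promoter of the transgene nor the number and sex of the mice behind an array.

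In adult marrow, the LSK fraction holds haematopoietic stem cells and multipotent progenitors, which keep stem cell transcription factors such as Hlf, Meis1 and the HoxA genes on and which express the receptors Kit and Flt3. Lymphoid priming begins within it, with Dntt and Flt3, and goes on through the common lymphoid progenitor, which gains IL7R and can give B, T and natural killer cells. Ebf1, Pax5 and the surrogate light chain genes mark its step into the B lineage, whereas Gata1 and Klf1 drive red cell genes and C/EBP factors drive granule genes in the myeloid branches.

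Signals are given as the log2 of a probe's intensity relative to the 75th percentile of its array, so that 0 is that percentile, and a difference is CLP minus LSK on that scale. Of the 55681 probes, 65.3% were well above background on the SFRP5 LSK array and 66.1% on the SFRP5 CLP array, against 70.1% and 65.7% on the WT LSK and WT CLP arrays. A probe stood for each of 24278 genes, and 15713 genes were measured on both SFRP5 arrays. With 1 array per group there is no replicate spread and no test; differences were counted at 2-fold. The spread that the arrays do give is between copies of 1 probe on 1 array. Over 399 such probes the median SD was 0.06 log2 above the 75th percentile on both SFRP5 arrays and rose to 0.50 (LSK) and 0.40 (CLP) for signals more than 4 log2 below it. It covers neither mice, sorting nor amplification.

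At 2-fold, 1807 of the 15713 genes (11.5%) were higher in CLP and 1729 (11.0%) were lower, so that 22.5% differed in either direction. The median difference was 0.02, and 51.5% of the genes lay above 0. These are the values against which each gene list below is read. At 8-fold, 173 genes were higher and 138 lower. On the scale of the authors' deposited signals, which are the same intensities times 1 factor per array, every difference lies 0.19 log2 lower, and 1332 genes were then 2-fold higher and 2213 lower (37.6% of the calls higher, against 51.1% here). A further 1089 genes were above background in CLP alone and 918 in LSK alone. Of these 2007 genes, 29.6% were higher by a bound of 2-fold or more and 28.5% were lower, the bound being taken against the higher of the dim probe's own signal and the lowest signal that passed on that array.

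The genes of the sort gate fell on the side that the gate sets. Il7r, the IL-7 receptor chain, had a signal of 0.89 in LSK and 3.13 in CLP, which is 4.73-fold higher in CLP. Kit, the receptor of stem cell factor, had 5.18 in LSK and 3.47 in CLP, 3.27-fold lower, and Ly6a, which encodes Sca-1, had 1.02 and -0.70, 3.30-fold lower. Since the gate chose cells on these proteins, their differences check the labels and are not findings. Flt3, a receptor of early lymphoid and dendritic progenitors that the gate did not use, had 3.10 in LSK and 0.32 in CLP, 6.85-fold lower, and its further probes were also lower (-2.27 to -1.51).

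Among the genes listed as lineage antigens, Cd3e, a T cell receptor component that the sort was to leave out, had -0.14 in LSK and -0.67 in CLP, a difference of -0.53. Ptprc, the common leukocyte antigen, had 0.37 and -0.48. It is not confined to a single lineage, so its values do not bear on what the sort left out. Cd3e and Ptprc stayed within 2-fold. Itgam had 8.18 and 8.08 and was as bright on the WT arrays, and its further probes spanned -0.81 to 0.46.

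**Figure D1:**
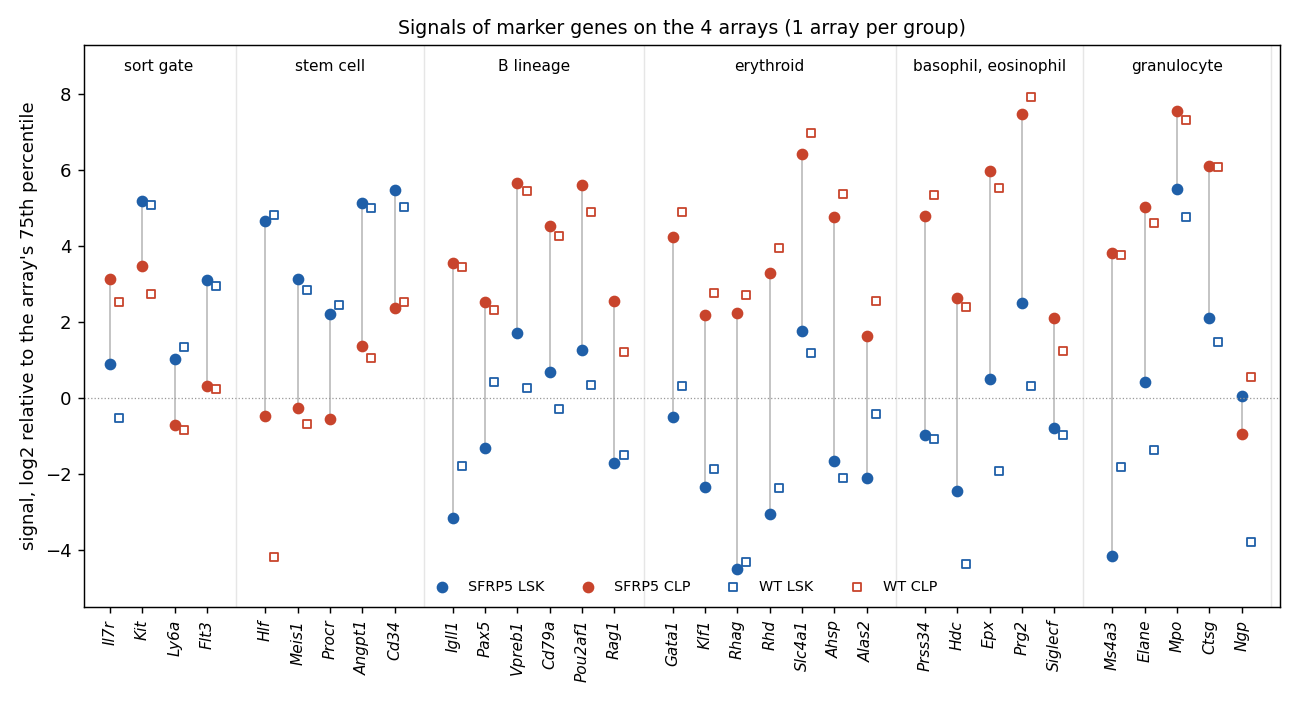
Signals of marker genes (log2 relative to the array's 75th percentile, vertical axis) on each of the 4 arrays, with filled circles for SFRP5, open squares for WT, blue for LSK and red for CLP; a line joins the 2 SFRP5 arrays, and a probe not above background is not drawn. Stem cell genes such as Hlf (4.67 in LSK, -0.46 in CLP) are lower in CLP, and the B lineage, erythroid, basophil and eosinophil genes drawn and the granulocyte genes other than Ngp are higher.

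Stem cell genes were lower in the CLP fraction. Of 25 stem cell transcription factors measured on both arrays (29 on the array), 11 were at least 2-fold lower and 1 was higher, with a median difference of -0.98. Hlf, a PAR-domain factor of stem cells, had 4.67 in LSK and -0.46 in CLP, 34.9-fold lower. Mycn, a MYC family member, had 5.16 and 1.13, 16.3-fold lower, and Meis1, a partner of HOX proteins, had 3.14 and -0.27, 10.6-fold lower. Prdm16, needed for stem cell maintenance, had 1.07 and -1.75, 7.08-fold lower. Gata2 had 2.36 and 1.37 (-0.98), and Erg had 2.36 and 1.36 (-1.0). Gfi1b, a repressor that erythroid cells use, was the member on the other side, with -1.04 in LSK and 1.12 in CLP, 4.47-fold higher. Foxo3 had 5.21 and 2.74, but its further probe lay at 1.14, so its probes disagree. Mecom had -4.36 and -3.93, and the sign of its difference turned under other settings.

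HOX genes, whose products set the identity of stem and progenitor cells, were more often lower than higher in CLP. Of 13 HOX genes measured on both arrays (39 on the array), 7 were at least 2-fold lower in CLP and 0 were higher, and 4 more were lower by a bound, with a median of -1.18 (-0.12 with no filter on dim probes). Hoxa9 had 2.11 in LSK and -0.30 in CLP, 5.31-fold lower, Hoxa5 had 0.20 and -2.66, 7.28-fold lower, and Hoxa6 had 0.44 and -3.26, 13-fold lower. Hoxa10 had -0.34 in LSK and was not above background in CLP, at least 28.3-fold lower, and Hoxb6 was at least 20.3-fold lower. These members belong to the A and B clusters. By contrast, 6 of the 13 stayed within 2-fold. Among these, Hoxa7 had 1.63 and 0.89 (-0.74), and Hoxc5 and Hoxd12 differed by -0.06 and 0.03. The summed intensity of the 39 genes was 19.2 times the array's 75th percentile in SFRP5 LSK and 5.56 times in SFRP5 CLP.

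Surface and niche-contact genes of stem cells showed a similar count. Of 25 measured on both arrays (30 on the array), 14 were at least 2-fold lower in CLP and 0 were higher, with a median of -1.46. Angpt1, the ligand of the receptor Tie2, had 5.14 in LSK and 1.36 in CLP, 13.8-fold lower, while Tek, which encodes Tie2 itself, had -2.0 in LSK and was not above background in CLP, at least 8.90-fold lower. Esam and Robo4, adhesion and guidance receptors of stem cells and endothelium, were 17.0-fold lower (-0.64 and -4.72) and 11.1-fold lower (1.37 and -2.10). Cd34 had 5.47 and 2.37, 8.54-fold lower, and Procr, the protein C receptor, had 2.22 and -0.55, 6.82-fold lower. Ligand and receptor of the angiopoietin system were thus on the same side. The summed intensity of the 30 genes was 393 in LSK and 182 in CLP, in multiples of the 75th percentile. In bulk RNA, fewer cells of a type and less RNA per cell cannot be told apart, which holds for each list below.

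The early lymphoid genes split. Of 36 measured on both arrays (36 on the array), 9 reached 2-fold higher in CLP and 15 reached 2-fold lower, with a median of -0.89. Rag1, a subunit of the recombinase of antigen receptor genes, had -1.70 in LSK and 2.56 in CLP, 19.2-fold higher, and Rag2, its partner, had 1.39 and 2.67, 2.43-fold higher. Dntt, which encodes terminal transferase, was bright on both arrays (6.82 and 7.25, a difference of 0.44). Blnk, an adaptor of B cell receptor signalling, had -1.03 and 1.81, 7.17-fold higher. The members on the higher side include the recombinase genes and B cell adaptors.

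On the lower side stood surface receptors and factors of multipotent and lymphoid-primed progenitors. Cd27, a TNF receptor family member, had 2.74 in LSK and -0.01 in CLP, 6.75-fold lower, and Ltb, which encodes lymphotoxin beta, had 1.94 and -2.95, 29.8-fold lower. Satb1, a chromatin organiser of lymphoid cells, had 1.91 and 0.10, 3.50-fold lower, and Sox4 had 5.92 and 4.33, 3.01-fold lower. Il2rg, the common cytokine receptor chain that pairs with IL7R, had 3.83 and 2.40, 2.68-fold lower, and its kinase Jak3 had 1.17 and -0.68, 3.60-fold lower. The IL-7 receptor chain and the shared chain with its kinase thus lay on opposite sides of 0. Ccr9, a homing receptor, had -0.51 and -0.47.

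B lineage genes were mostly higher in the CLP fraction. Of 27 measured on both arrays (35 on the array), 20 were at least 2-fold higher and 1 was lower, with a median of 2.23, and 4 more were higher by a bound and 1 lower. Among the factors, Ebf1, which opens the B cell programme, was not above background in LSK and had 0.08 in CLP, at least 34.5-fold higher, and Spib was at least 62.4-fold higher (0.89 in CLP). Pax5, which fixes B cell identity, had -1.32 and 2.52, 14.3-fold higher, Foxo1 had 0.43 and 1.93, 2.84-fold higher, and Pou2af1, a B cell coactivator, had 1.26 and 5.60, 20.3-fold higher. These factors were all on the same side.

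The pre-B cell receptor genes followed. Igll1, which encodes the λ5 surrogate light chain, had -3.15 in LSK and 3.56 in CLP, 104-fold higher. Vpreb1 had 1.71 and 5.65, 15.4-fold higher, and Vpreb3 had -1.19 and 2.55, 13.4-fold higher; Vpreb1 and Vpreb2 are near-identical copies, whose probes may share signal. Cd79a, a signalling chain of that receptor, had 0.69 and 4.54, 14.4-fold higher, and Cd79b had 0.05 and 1.79, 3.34-fold higher. Ly6d, a marker of B-biased lymphoid progenitors, had -3.41 and 0.24, 12.6-fold higher. The summed intensity of the 35 genes was 425 times the 75th percentile in LSK and 636 times in CLP. Markers of red cells, basophils, eosinophils and neutrophils, given below, were also higher in this fraction, and their part in these values was not tested.

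Igll1 had the highest difference among the B lineage genes measured on both arrays, and its promoter window is shown because of this. The window, from 250 bases before to 50 bases after the RefSeq start, lies on the minus strand at chr16:16863936-16864235 (GRCm38.p6).
Igll1: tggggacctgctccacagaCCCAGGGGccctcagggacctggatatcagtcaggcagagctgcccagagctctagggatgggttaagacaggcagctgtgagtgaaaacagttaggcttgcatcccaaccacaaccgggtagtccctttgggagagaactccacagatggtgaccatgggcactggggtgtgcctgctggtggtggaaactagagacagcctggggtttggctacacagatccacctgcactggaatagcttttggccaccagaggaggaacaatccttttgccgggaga
Capitals mark its single match to the EBF-type motif CCCNNGGG, searched on both strands. Of 31 windows of B lineage genes, 7 (22.6%) hold this motif, against 13.7% of all 32851 windows. The share is not particular to this list. In the other lists searched it ran from 12.5% (red cell membrane and blood group genes) to 28.6% (globin genes, 2 of 7 windows). Stem cell transcription factors, mostly lower in CLP, had it in 9 of 32 windows (28.1%). A match is a description of letters and not a bound site.

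Genes of the other lymphoid branches did not shift as a list. Of 18 T lineage genes measured on both arrays (26 on the array), 1 was at least 2-fold higher and 1 lower; the median of -0.06 changed sign under another scaling. Tcf7, a factor of T cell commitment, had -2.09 and -1.30, Gata3 had -2.22 and -1.64, and Notch1, which starts that commitment, had 2.02 and 1.02. Of 17 natural killer and innate lymphoid genes, 6 were higher (2 at the lowest over the 9 settings tried) and 2 lower, with a median of 0.41. Id2, an inhibitor of E proteins, had -1.88 and -0.70, 2.26-fold higher, Zbtb16 had 0.37 and 1.40, 2.03-fold higher, and Tox had -0.35 and -2.43, 4.24-fold lower. Of 22 dendritic cell genes, 7 were higher (3 at the lowest) and 4 lower, with a median of 0.23. Irf8, needed by dendritic cells and B cells alike, had 0.47 and 1.78, 2.48-fold higher, Tcf4 had 1.86 and 0.82, 2.06-fold lower, and Siglech had 5.09 and 4.90. The difference of Siglech turned from -0.20 to 1.76 with the mean of its probes, so its probes disagree.

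Red cell genes were higher in the CLP fraction. Of 23 membrane and blood group genes measured on both arrays (30 on the array), 18 were at least 2-fold higher in CLP and 0 were lower, with a median of 3.02, and 6 more were higher by a bound. Kel, the Kell blood group protein, had -4.63 in LSK and 2.45 in CLP, 136-fold higher. Rhag and Rhd, of the Rh complex, were 107-fold higher (-4.49 and 2.25) and 80.2-fold higher (-3.04 and 3.29). Slc4a1, the band 3 anion exchanger, had 1.78 and 6.42, 24.9-fold higher. The receptor Epor, through which erythropoietin acts, had -0.79 and 2.33, 8.72-fold higher. Epb42, a membrane skeleton protein, was not above background in LSK and was at least 39.0-fold higher. Summed over the 30 genes, intensity was 281 in LSK and 606.5 in CLP. Much of the LSK sum came from the brightest probe of Dmtn, which had 7.76 in LSK and 7.73 in CLP. With the mean of its probes, the difference of Dmtn turned from -0.03 to 3.02. Ermap had 3.20 and 3.24 by its brightest probe, whereas its further probes were higher by 4.63 to 4.77, so its probes disagree.

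The erythroid transcription factors were mixed. Of 17 measured on both arrays (19 on the array), 5 reached 2-fold higher and 2 reached 2-fold lower, with a median of -0.05 that changed sign under another scaling, and 2 more were higher by a bound. Gata1, the main erythroid factor, had -0.51 in LSK and 4.24 in CLP, 26.8-fold higher, and Klf1 had -2.35 and 2.18, 23-fold higher. Zfpm1, a cofactor of GATA1, had 0.95 and 2.17, 2.33-fold higher. Trim10 and Sox6 were not above background in LSK and were at least 61.0-fold and 35.5-fold higher. Nfe2, shared with megakaryocytes, had 2.63 and 1.26, 2.59-fold lower.

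Haem synthesis and iron genes were mostly higher in CLP. Of 29 haem and iron genes measured on both arrays (30 on the array), 20 were at least 2-fold higher and 1 was lower, with a median of 2.29. Along the pathway, the first enzyme Alas2, of red cells, had -2.10 and 1.63, 13.2-fold higher, and its housekeeping counterpart Alas1 had 1.40 and 3.69, 4.91-fold higher, with a further probe at 0.01. Alad had -1.79 and 1.11, 7.47-fold higher, Uros had -4.08 and 0.53, 24.3-fold higher, Urod had 1.57 and 4.03, 5.51-fold higher, Cpox had 1.12 and 4.60, 11.2-fold higher, Ppox had 0.36 and 2.0, 3.12-fold higher, and Fech, which inserts the iron, had -0.52 and 2.91, 10.8-fold higher. Each of these enzymes, from Alas2 to Fech, was therefore at least 2-fold higher. Tfrc, the transferrin receptor of iron uptake, had 0.35 and 3.92, 11.9-fold higher, while Tfr2 had 1.89 and 2.08. Hmox1, which breaks haem down, was the lower member, at -1.40.

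All 6 globin-list genes measured on both arrays (of 11 on the array) were at least 2-fold higher, with a median of 4.48. Hba-a1, α-globin, had 2.97 in LSK and 7.63 in CLP, 25.2-fold higher, and Hbb-b1, β-globin, had 3.0 and 5.88, 7.35-fold higher. Ahsp, the chaperone of α-globin, had -1.65 and 4.77, 86.0-fold higher. The globin genes are near-identical copies, so the share of each copy is uncertain. The summed intensity of the list was 20.8 times the 75th percentile in LSK and 409.6 times in CLP.

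The promoter windows of 4 red cell genes, which run through membrane, receptor and haem roles, are shown with their matches to a GATA motif (AGATAA or TGATAA, on either strand) in capitals. In GRCm38.p6 they lie at chr6:41704276-41704575 on the minus strand (Kel), chr17:40810899-40811198 on the plus strand (Rhag), chr9:21963527-21963826 on the minus strand (Epor) and chrX:150547167-150547466 on the plus strand (Alas2), each from 250 bases before to 50 bases after the RefSeq start.
Kel: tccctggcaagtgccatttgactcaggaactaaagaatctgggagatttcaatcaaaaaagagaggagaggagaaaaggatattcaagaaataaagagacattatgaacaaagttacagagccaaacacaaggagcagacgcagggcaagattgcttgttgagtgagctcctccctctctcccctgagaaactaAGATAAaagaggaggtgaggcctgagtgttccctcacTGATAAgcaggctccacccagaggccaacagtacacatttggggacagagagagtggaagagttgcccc
Rhag: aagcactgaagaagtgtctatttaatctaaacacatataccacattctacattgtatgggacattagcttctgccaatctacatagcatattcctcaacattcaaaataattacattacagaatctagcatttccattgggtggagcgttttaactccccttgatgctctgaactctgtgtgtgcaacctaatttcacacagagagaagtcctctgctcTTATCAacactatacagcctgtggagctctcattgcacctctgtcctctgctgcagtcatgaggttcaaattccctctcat
Epor: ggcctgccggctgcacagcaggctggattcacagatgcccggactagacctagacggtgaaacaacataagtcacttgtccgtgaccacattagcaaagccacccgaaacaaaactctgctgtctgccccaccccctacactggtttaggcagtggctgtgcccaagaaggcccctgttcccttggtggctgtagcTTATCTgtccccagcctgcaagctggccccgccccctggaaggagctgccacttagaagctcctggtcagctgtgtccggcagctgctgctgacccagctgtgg
Alas2: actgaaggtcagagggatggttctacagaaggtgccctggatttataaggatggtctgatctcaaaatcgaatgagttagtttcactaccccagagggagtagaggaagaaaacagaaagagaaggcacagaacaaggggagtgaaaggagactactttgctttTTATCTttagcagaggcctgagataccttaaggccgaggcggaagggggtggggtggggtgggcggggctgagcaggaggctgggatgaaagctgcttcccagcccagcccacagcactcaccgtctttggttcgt
Kel holds 2 matches and the other 3 hold 1 each. These 4 genes were chosen by hand. They do not stand for the membrane list or the haem and iron list, in which most windows lack the motif. Over the lists, 10 of 24 windows of membrane and blood group genes (41.7%) and 5 of 7 globin windows (71.4%) hold the motif, against 6 of 37 haem and iron windows (16.2%), 3 of 31 B lineage windows (9.68%) and 18.6% of all 32851 windows. A KLF-type motif, CCNCNCCC, was in 31 of 37 haem and iron windows (83.8%) and in 14 of 24 membrane windows (58.3%). The same motif was in 2 of 7 globin windows (28.6%) and in 49.5% of all windows. It was in 28 of 32 windows of stem cell transcription factors (87.5%), whose members were mostly lower. The ETS motif GGAAGT was in 8 of 22 windows of stem cell surface genes (36.4%) but in 2 of 32 windows of stem cell transcription factors (6.25%). B lineage genes, mostly higher in CLP, had it in 10 of 31 windows (32.3%), and 23.8% of all windows held it. Matches to different motifs were counted separately and may overlap in a window. Windows were at hand for 21 of the 30 membrane genes, 24 of the 30 haem genes and 26 of the 35 B lineage genes.

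**Figure D2:**
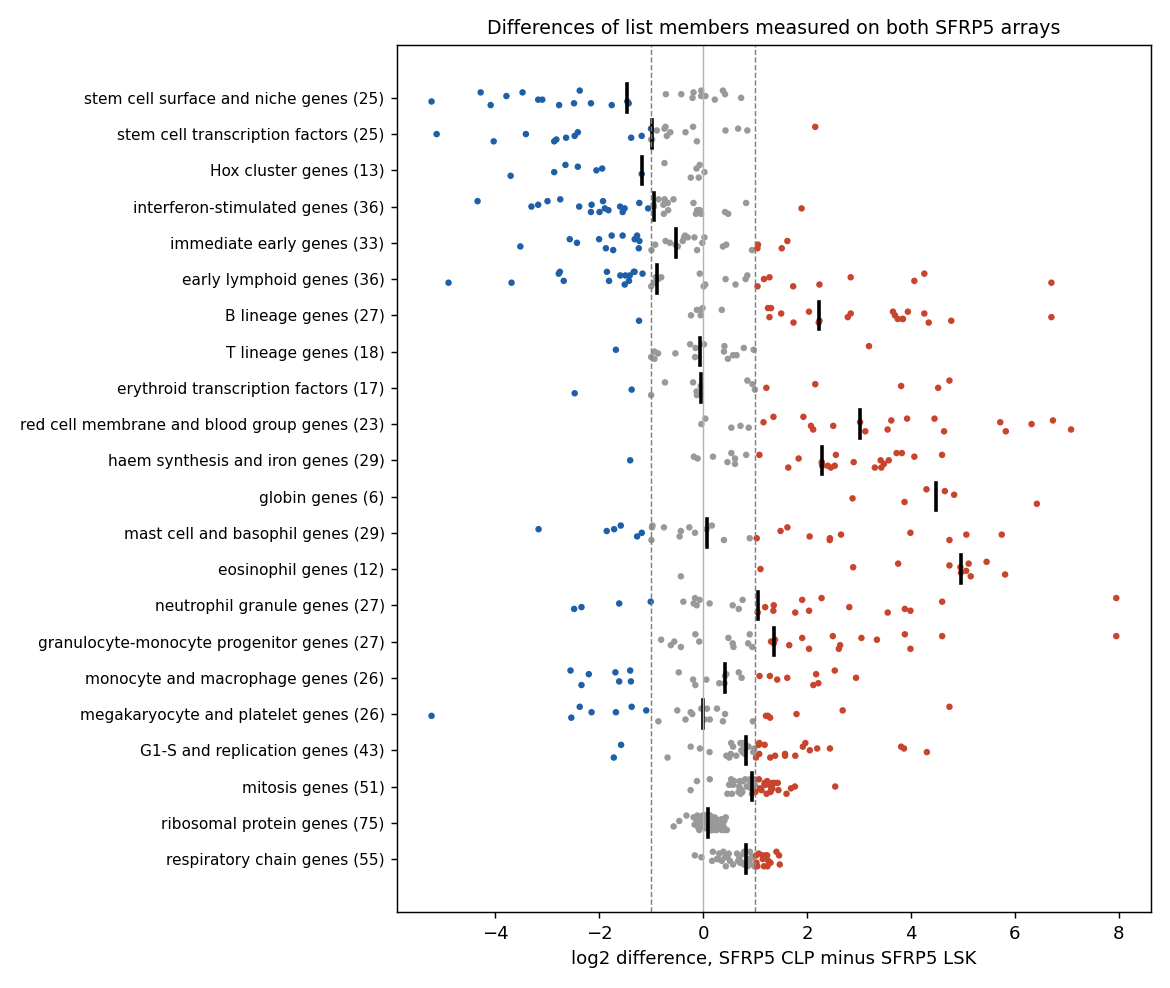
Differences of single genes (log2, SFRP5 CLP minus SFRP5 LSK, horizontal axis) in 22 gene lists; each point is a gene above background on both arrays, red at least 2-fold higher, blue at least 2-fold lower, grey between, and a black bar is the list's median. The number of genes is in parentheses, genes in several lists are drawn in each, and the globin (median 4.48) and eosinophil (median 4.96) lists lie farthest to the right.

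Eosinophil and basophil genes were also higher in the CLP fraction. Of 12 eosinophil genes measured on both arrays (17 on the array), 11 were at least 2-fold higher and 0 were lower, with a median of 4.96, and 3 more were higher by a bound. Epx, eosinophil peroxidase, had 0.51 in LSK and 5.97 in CLP, 44.0-fold higher. Prg2, the major basic protein, had 2.50 and 7.47, 31.2-fold higher, and Ear6, of the eosinophil ribonuclease family, had -1.93 and 3.88, 56.3-fold higher. The Ear genes are close copies whose probes may share signal. Siglecf, a surface receptor of mature eosinophils, had -0.78 and 2.11, 7.41-fold higher, and Il5ra, the receptor of their growth factor, had -0.84 and 0.27, 2.15-fold higher. The summed intensity of the 17 genes was 21.8 times the 75th percentile in LSK and 493.0 times in CLP.

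Mast cell and basophil genes had members on both sides. Of 29 measured on both arrays (46 on the array), 11 reached 2-fold higher and 6 reached 2-fold lower, 5 more were higher by a bound and 1 lower, and the median of 0.07 changed sign under another scaling. Prss34, a basophil protease, had -0.96 in LSK and 4.79 in CLP, 53.8-fold higher, and Mcpt8, a second basophil protease, was not above background in LSK and had 1.83 in CLP, at least 120-fold higher. Hdc, which makes histamine, had -2.44 and 2.62, 33.6-fold higher. Fcer1a and Ms4a2, chains of the IgE receptor, were not above background in LSK and were at least 9.14-fold and 8.75-fold higher. Among mast cell protease genes, Cpa3 had -0.43 and 2.22, 6.30-fold higher, Tpsb2 had -0.58 and -1.33, and Mcpt4 had -0.61 in LSK and was not above background in CLP, at least 23.3-fold lower. Together the 46 genes had an intensity of 141 in LSK and 243 in CLP.

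Prss34 had the highest difference of this list measured on both arrays, and its promoter window at chr17:25298144-25298443 (GRCm38.p6, plus strand) is shown for that reason.
Prss34: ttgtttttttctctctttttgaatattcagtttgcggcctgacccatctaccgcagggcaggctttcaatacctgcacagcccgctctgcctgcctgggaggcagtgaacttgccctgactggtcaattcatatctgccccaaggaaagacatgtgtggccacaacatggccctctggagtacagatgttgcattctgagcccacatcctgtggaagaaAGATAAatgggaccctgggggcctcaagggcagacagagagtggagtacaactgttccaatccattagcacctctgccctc
Capitals mark its match to the GATA motif. The motif was in 17 of 45 windows of mast cell and basophil genes (37.8%) and in 4 of 13 windows of eosinophil genes (30.8%), against 18.6% of all windows.

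Granulocyte genes were mostly on the higher side. Of 27 granulocyte-monocyte progenitor genes measured on both arrays (30 on the array), 15 reached 2-fold higher and 0 reached 2-fold lower, with a median of 1.36. Of 27 neutrophil granule genes (37 on the array), 14 were higher and 4 lower, with a median of 1.05. Ms4a3, a membrane protein of granulocyte-monocyte progenitors, had -4.15 in LSK and 3.81 in CLP, 248-fold higher. Among primary granule proteases, Elane had 0.42 and 5.03, 24.3-fold higher, Ctsg had 2.11 and 6.10, 15.9-fold higher, and Mpo, the myeloperoxidase of the same granules, had 5.51 and 7.55, 4.12-fold higher. Cebpe, which encodes a factor of late granule genes, was not above background in LSK and had 2.04 in CLP, at least 139-fold higher.

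Other neutrophil granule genes had differences in both directions. Fcnb, a ficolin, was not above background in LSK and was at least 21.4-fold higher. Ltf, lactoferrin, had -3.44 and -2.68, Camp had -1.44 and -1.51, and Ngp had 0.05 and -0.95, 2.01-fold lower. Lcn2 had -0.44 and 0.61, 2.08-fold higher. S100a8 had -1.65 and 1.17, 7.04-fold higher, and S100a9, its partner, had 2.07 and 3.42, 2.56-fold higher. The factors Cebpa (2.10 and 1.68) and Spi1 (1.70 and 1.14) and the receptors Csf1r (4.56 and 4.41) and Csf3r (8.12 and 8.05) stayed within 2-fold. Over the 37 neutrophil genes, intensity summed to 109 in LSK and 433 in CLP.

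Monocyte, macrophage, platelet and stromal genes had no common direction. Of 26 monocyte and macrophage genes measured on both arrays, 9 were at least 2-fold higher (5 at the lowest over the 9 settings tried) and 7 lower, with a median of 0.42. Vcam1 had -1.84 and 1.11, 7.70-fold higher, and Adgre1, which encodes F4/80, had -3.49 and -1.36, 4.36-fold higher. Apoe had 3.10 and 1.41, 3.22-fold lower, and C1qc had -1.48 and -4.03, 5.86-fold lower, whereas C1qa (-2.61 and -2.81) and C1qb (-1.46 and -1.04), of the same complement complex, stayed within 2-fold. Of 26 megakaryocyte and platelet genes, 6 were higher (2 at the lowest) and 7 lower, with a median of -0.00 that changed sign under other settings. Pf4, a platelet chemokine, had 0.40 and 2.20, 3.48-fold higher, and Plek had 2.70 and 0.17, 5.79-fold lower. Vwf (-1.05 and -0.62) and Itga2b (-1.66 and -1.28) stayed within 2-fold. Of 16 non-haematopoietic marrow genes, 2 were higher and 6 lower, with a median of -0.43. Cxcl12, the niche chemokine, had -3.07 and 0.40, 11.1-fold higher, and Col1a1 had -2.26 and -2.44. On the lower side, Pdgfrb had 2.16 and -2.62, 27.4-fold lower, and Bglap had 1.34 and -1.02, 5.14-fold lower. The summed intensity of the non-haematopoietic list was low on both arrays, at 18.0 in LSK and 9.64 in CLP.

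Receptors and signal transducers of cytokines were more often lower than higher. Of 38 cytokine receptor genes measured on both arrays, 5 reached 2-fold higher and 10 reached 2-fold lower, with a median of -0.34. Besides Il7r and Epor, Il1rl1, the IL-33 receptor of basophils and mast cells, was higher (-0.48 and 1.96, 5.44-fold). Besides Flt3 and Kit, Il1r1 was lower (1.42 and -2.06, 11.1-fold), as were Lifr (-1.68 and -4.50, 7.07-fold) and Il6ra (1.08 and -0.22, 2.46-fold). The shared β chain gene Csf2rb had 1.08 and 1.25. Of 27 JAK, STAT and SOCS genes, 1 was higher and 6 lower, with a median of -0.57. The feedback inhibitors Cish (0.36 and -2.34) and Socs3 (-2.18 and -3.89) were 6.48-fold and 3.28-fold lower, and Socs2 (-0.24 and -1.57) was 2.52-fold lower. Stat4 had 0.84 and -1.71, 5.88-fold lower. Of 25 homing receptors and integrins, 3 were higher and 6 lower, with a median of -0.21. Cxcr4, the receptor of Cxcl12, had 5.03 and 5.38.

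Sfrp5 itself did not separate the sorts. Its probe had -0.31 in LSK and -0.00 in CLP, a difference of 0.30. On the WT arrays the probe had -0.23 in LSK and -0.02 in CLP, a difference of 0.21. Its signal was thus near equal in the 2 genotypes, with no clear excess on the transgenic arrays. The sources used here do not say whether the transgene's RNA holds this probe. Of the 15 secreted Wnt antagonists on the array, 3 were measured on both arrays and none of the 3 differed by 2-fold; Sfrp4 was not above background in LSK and was at least 9.28-fold higher in CLP (-1.86).

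Wnt pathway genes, the pathway on which SFRP5 acts, had members on both sides and list medians between -0.34 and 0.04, apart from the antagonists above. Of 14 ligand and export genes measured on both arrays (26 on the array), 4 were at least 2-fold lower and 0 higher, with a median of -0.18. Wnt2b had 0.43 in LSK and -3.52 in CLP, 15.5-fold lower, and Wls, which carries Wnt proteins to the surface, had 1.47 and 0.34, 2.18-fold lower. Of 14 receptors and co-receptors (25 on the array), 1 was higher and 3 lower, with a median of -0.30. Fzd9 had -1.60 and -4.45, 7.23-fold lower, Fzd4 had -2.66 in LSK and was not above background in CLP, at least 5.65-fold lower, and the co-receptors Lrp5 (2.44 and 1.97) and Lrp6 (1.13 and 0.94) stayed within 2-fold. Lrp4, a further co-receptor, was the higher member (-1.59 and 0.60, 4.58-fold).

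Of 35 β-catenin pathway components, 3 reached 2-fold higher and 5 reached 2-fold lower, with a median of -0.13. Ctnnb1, β-catenin itself, had 5.04 and 4.88, and Axin1 had 3.31 and 3.12. Apc, of the destruction complex, had -0.05 and -1.39 (2.54-fold lower), but its further probe lay at 0.25. Of 17 target genes of the pathway (31 on the array), 4 were higher and 5 lower, with a median of -0.34. Among the lower members, Myc had 2.94 and 1.91, 2.04-fold lower, and Ccnd1 had 0.78 and -0.93, 3.29-fold lower. Axin2, the feedback target, had -3.73 in LSK and was not above background in CLP, at least 2.03-fold lower. This bound lies just past 2-fold. Among the higher members, Tnfrsf19 had -2.87 and -0.74, 4.40-fold higher, and Vegfa had 0.55 and 2.30, 3.37-fold higher. Their further probes lay at 0.49 and 0.10. The summed intensity of the 31 target genes was 155.7 in LSK and 204.4 in CLP. Of 38 genes of noncanonical Wnt signalling, 4 were higher and 8 lower, and the median of 0.04 changed sign under another scaling. Daam1, which links Wnt signals to actin, had -1.24 and 3.35, 24.1-fold higher, Prkcb had -1.06 and 1.70, 6.74-fold higher, and Nfatc2 had 0.69 and -3.30, 15.9-fold lower.

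Notch, TGF-β and BMP genes had more members at 2-fold lower than higher. Of 26 Notch pathway genes measured on both arrays, 1 was higher and 5 lower, with a median of -0.36. Dtx4 was the higher member, with a difference of 1.15. Notch2 had 4.80 and 3.27, 2.88-fold lower, and the targets Hes1 (-0.31 and 0.17) and Nrarp (-2.11 and -1.51) stayed within 2-fold. Jag2, a ligand, had -0.67 in LSK and was not above background in CLP, at least 22.4-fold lower. Of 23 TGF-β and BMP genes, 7 were lower and 0 higher, with a median of -0.84. Bmpr2, a BMP receptor, had 0.37 and -2.34, 6.54-fold lower, Acvr2b had 1.51 and -0.47, 3.95-fold lower, and Smad1, which relays BMP signals, had 2.96 and 1.0, 3.88-fold lower. Smad2, of the TGF-β branch, had 0.88 and 1.08.

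Interferon-stimulated genes were lower in the CLP fraction. Of 36 measured on both arrays (39 on the array), 17 were at least 2-fold lower and 1 was higher, with a median of -0.95. Oasl2 had 0.81 in LSK and -3.53 in CLP, 20.2-fold lower, Ifi44 had -0.82 and -4.12, 9.86-fold lower, and Ifitm3, a membrane protein that blocks virus entry, had 6.11 and 3.95, 4.46-fold lower. Irf7, a transcription factor of the response, was lower too (-1.07 and -2.67, 3.02-fold). Isg20 was the higher member (1.62 and 3.52, 3.73-fold). Together the 39 genes had an intensity of 240.2 in LSK and 124.5 in CLP.

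MHC genes had members on both sides. Of 21 MHC genes measured on both arrays, 3 were higher and 4 lower, with a median of -0.54. The class II genes H2-Ab1 (0.47 and 1.97, 2.83-fold), H2-Eb1 (-3.03 and -1.31, 3.29-fold) and H2-Aa (-1.51 and -0.39, 2.18-fold) were the higher members, while H2-DMa, of class II peptide loading, had 3.04 and 1.01, 4.07-fold lower. The class I gene H2-K1 had 6.60 and 5.99 and B2m, its light chain, had 6.08 and 5.71. Tap1, the peptide transporter of class I loading, had -0.90 and -3.29, 5.22-fold lower.

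Immediate early genes, which respond to stimulation within minutes and also to cell handling, were lower in CLP. Of 33 measured on both arrays, 12 were at least 2-fold lower and 4 higher, with a median of -0.53. Nr4a1 had 4.50 and 1.94, 5.92-fold lower, Fos had 4.51 and 2.79, 3.31-fold lower, and Egr1 had 5.33 and 4.02, 2.49-fold lower. Jun (2.38 and 1.89) and Dusp1 (4.84 and 4.12) stayed within 2-fold.

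Cell division genes were higher in CLP. Of 51 mitosis genes measured on both arrays (52 on the array), 23 were at least 2-fold higher, 0 were lower and 49 lay above 0, against 51.5% of all genes above 0, and the median was 0.94. Mki67, the proliferation antigen, had 4.73 in LSK and 6.03 in CLP, 2.46-fold higher, Ccnb1, cyclin B, had 1.1 and 2.87, 3.41-fold higher, and Plk1, a mitotic kinase, had 1.44 and 2.66, 2.31-fold higher. Of 43 genes of G1-S and replication, 18 were higher and 2 lower, with a median of 0.82. The D cyclins split, with Ccnd3 higher (2.96 and 5.41, 5.44-fold) and Ccnd1 and Ccnd2 lower (Ccnd2 2.51 and 0.93, 2.98-fold). Ccne1, cyclin E, had -2.11 and 2.19, 19.8-fold higher, and E2f2, an activator of S phase genes, had -0.42 and 3.39, 14.1-fold higher. Rrm2, which makes deoxynucleotides, had 3.29 and 5.49, 4.59-fold higher. The proliferation lists were thus higher where the stem cell lists were lower.

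Of 28 genes of CDK inhibitors and quiescence, 3 were higher and 6 lower, with a median of -0.23. Cdkn2c had 1.12 and 2.50, 2.60-fold higher, Txnip had 3.42 and 1.74, 3.19-fold lower, and Cdkn1a (-0.41 and -0.78), Cdkn1b (2.95 and 2.82) and Cdkn1c (-3.81 and -4.05) stayed within 2-fold. Of 16 BCL2 family genes, 4 were higher and 3 lower, with a median of 0.40. The survival gene Bcl2 had 3.73 and 2.57, 2.24-fold lower, and Bcl2l1, the family member that red cell precursors depend on, had 1.58 and 2.71, 2.19-fold higher.

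Respiratory chain genes moved in a narrow range. All 55 on the array were measured, 53 of them lay above 0, 16 were at least 2-fold higher (7 at the lowest over the 9 settings tried) and 0 lower, and the median was 0.82. Cyc1, of complex III, had 2.15 and 3.62, 2.76-fold higher. The 75 ribosomal protein genes had a median of 0.09, which changed sign under another scaling, and none of them reached 2-fold in either direction; their differences ran from -0.57 (Rps27) to 0.46 (Rps10). Of 26 glycolysis genes, 2 were higher and 4 lower, with a median of 0.22; Pklr, the pyruvate kinase of red cells and liver, had -1.68 and 2.18, 14.5-fold higher, and Aldoc had 0.50 and -2.47, 7.85-fold lower. Of 12 metallothionein and zinc genes, 6 were higher and 2 lower, with a median of 1.02. Mt1 had -0.20 and 3.22, 10.7-fold higher, and Mt2 had 1.30 and 3.77, 5.52-fold higher. Asns, asparagine synthetase, was 14.6-fold higher (-0.11 and 3.75).

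**Figure D3:**
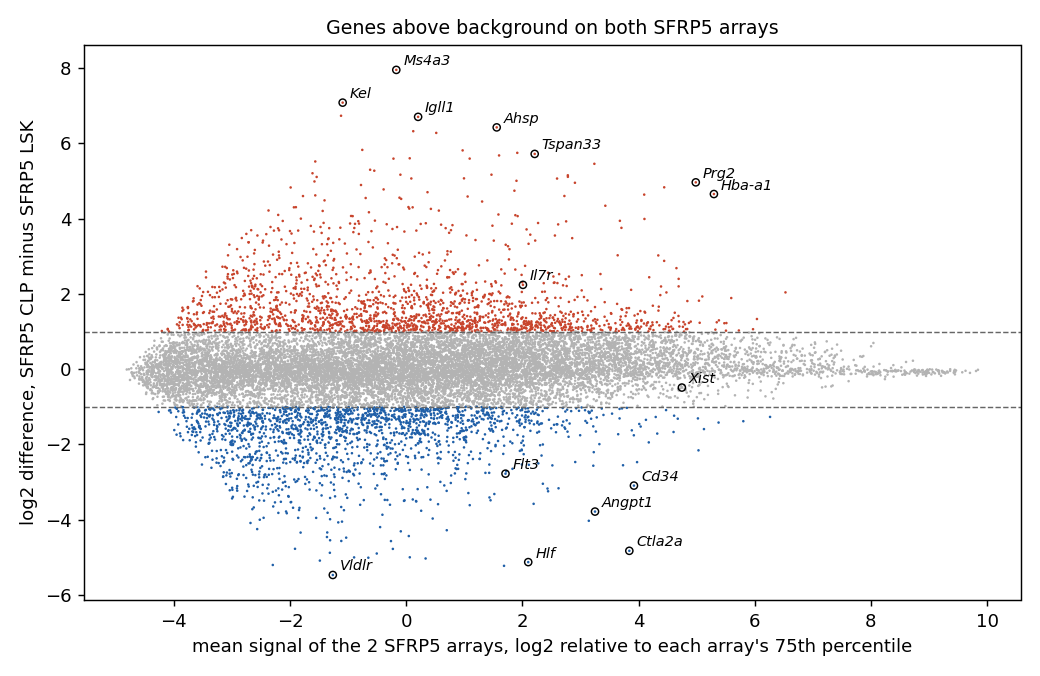
Difference (log2, SFRP5 CLP minus SFRP5 LSK, vertical axis) against the mean signal of the 2 SFRP5 arrays (log2 relative to each array's 75th percentile, horizontal axis) for the 15713 genes above background on both; red and blue points are past the dashed 2-fold lines. Ms4a3 (7.95) is at the top and Vldlr (-5.47) at the bottom among named genes, and the widest differences lie at middle signals.

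At both ends of the whole table, genes were taken by the size of their difference. Among genes whose brighter array reached its 75th percentile and whose further probes agree in sign, the 12 with the highest differences were Ms4a3 (7.95), Kel (7.08), Rhag (6.74), Igll1 (6.71), Ahsp (6.43), Rhd (6.32), Sec14l2 (6.28), Add2 (5.83), Ear6 (5.81), Prss34 (5.75), Tspan33 (5.72) and Acp5 (5.68). Among the highest, red cell genes (Kel, Rhag, Rhd, Ahsp, Add2) stand beside a granulocyte, an eosinophil, a basophil and a B lineage gene. Among the 12 lowest were Vldlr (-5.47), Glis2 (-5.20), Hlf (-5.13), Zfp503 (-5.09), Myct1 (-5.03), Pear1 (-5.01), Tnni2 (-5.00), Ctla2b (-5.00), Ltb (-4.90), Ctla2a (-4.83) and Pdgfrb (-4.78). Vldlr, a lipoprotein receptor, had 1.47 in LSK and -4.0 in CLP, and Ctla2a, a protease inhibitor, had 6.26 and 1.43. Ctla2a and Ctla2b are close copies whose probes may share signal.

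Among genes seen on 1 array, Cldn13, a claudin, had the highest bound, with 2.67 in CLP and at least 215-fold higher, followed by Cebpe (139), Mcpt8 (120), Crip2 (109), Nxpe2 (88.5) and Gpat3 (67.6). Slc16a11, a transporter of the monocarboxylate family, had 2.43 in LSK and was at least 193-fold lower, followed by Crispld1 (90.0), Gcnt2 (74.9), Clic5 (73.1), Hnf4a (60.5) and Hid1 (58.2). A bound needs no signal on the dim array, so these genes are not ranked with those measured on both. Where a 2-fold gene had further probes on both arrays (914 genes), all of them had the same sign in 75.8% and all reached 2-fold the same way in 40.5%. Across the 3425 genes with 1 further probe, the differences of the 2 probes correlated with a Pearson r of 0.49, over genes and not over samples.

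The WT arrays gave a comparison of the same sorts that shares no array with the SFRP5 one. In WT, 2849 of 16017 genes (17.8%) reached 2-fold higher in CLP and 2288 (14.3%) lower. Over the 15181 genes above background on all 4 arrays, the 2 sets of differences correlated with a Pearson r of 0.63 and a Spearman rho of 0.56 across genes, which are not independent replicates, and over the 9075 of them whose brightest array reached its 75th percentile with 0.75 and 0.70. Of 1738 of these genes higher in SFRP5 CLP, 1064 were also higher in WT CLP, which is 61.2% of the SFRP5 genes and 38.6% of the 2759 WT genes, and 78 were lower there. Of 1622 lower in SFRP5 CLP, 805 were also lower in WT, 49.6% of the SFRP5 genes and 37.8% of the 2128 WT genes, and 53 were higher there. The difference between the genotypes was not tested, since each value rests on 1 array. Xist, the RNA of the inactive X chromosome, had 4.99 and 4.50 on the SFRP5 LSK and CLP arrays and was near background on both WT arrays, where its probe did not pass. Ddx3y, a Y-linked gene, had -1.85 and -1.55 on the SFRP5 arrays and -0.50 and -0.02 on the WT arrays. Eif2s3y, also Y-linked, had -1.05 and -1.37 on the SFRP5 arrays and -0.23 and 0.32 on the WT arrays. Both Y-linked probes were above background on all 4 arrays, so the SFRP5 arrays carried Xist and Y-linked signal together. The sex of the mice behind these signals was not tested. A difference between the genotypes and one between mice of different sex cannot be told apart.

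**Figure D4:**
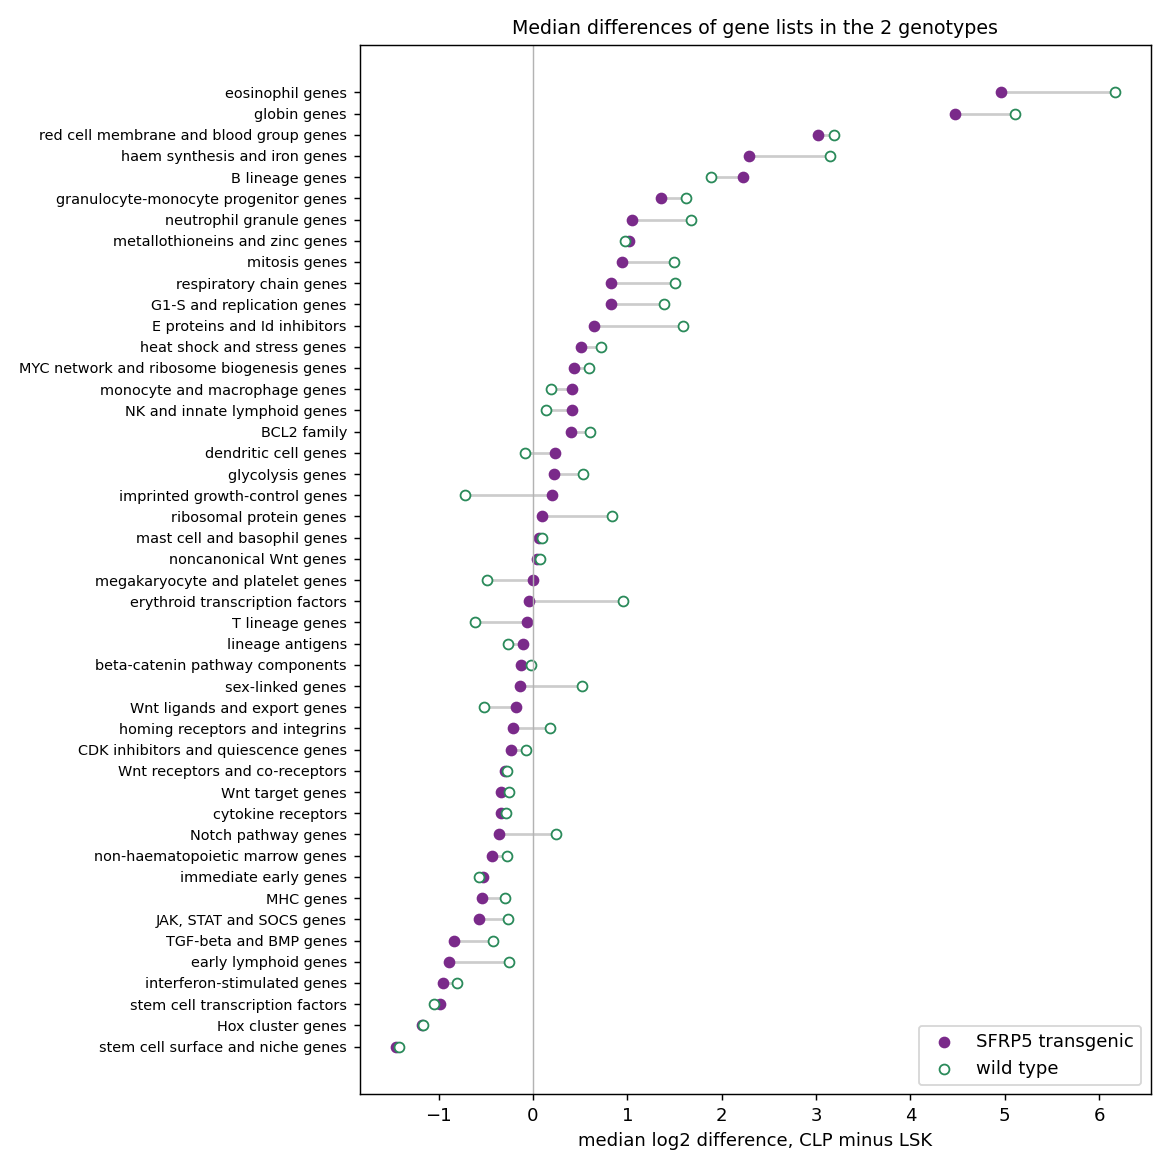
Median differences of the gene lists with at least 6 members measured in SFRP5 (log2, CLP minus LSK, horizontal axis) in SFRP5-transgenic (filled circles) and WT marrow (open circles), over the members above background on both arrays of that genotype; each circle rests on 1 array per sort. Among the lists drawn, eosinophil genes (4.96 in SFRP5) are at the top and stem cell surface genes (-1.46) at the bottom, and the ribosomal protein genes stand at 0.09 in SFRP5 and 0.83 in WT.

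Side by side, the lists of stem cell genes had near-equal medians: -0.98 in SFRP5 and -1.05 in WT for transcription factors, -1.46 and -1.42 for surface genes, and -1.18 and -1.17 for HOX genes. Those of B lineage genes were 2.23 and 1.88. The lists of division and metabolism had lower values in SFRP5: respiratory chain genes 0.82 against 1.5 in WT, with 16 against 49 of 55 at least 2-fold higher, ribosomal protein genes 0.09 against 0.83, with 0 against 21 of 75, and mitosis genes 0.94 against 1.49. Haem and iron genes had 2.29 in SFRP5 and 3.14 in WT, and eosinophil genes 4.96 and 6.16. The median over bright genes, those that reach the 75th percentile on an array, was 0.11 in SFRP5 and 0.32 in WT, and the part of that gap in these values was not tested.

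A few genes ran in opposite directions at 2-fold. Among genes above background on all 4 arrays, Tead2, a partner of YAP, had -2.86 in LSK and -0.12 in CLP of SFRP5 marrow (2.74) and 0.17 and -2.75 in WT (-2.92). Cxcr6, a chemokine receptor, had -1.17 and 0.75 in SFRP5 and 0.74 and -0.33 in WT. On the other side, Ngp, a neutrophil granule protein, had 0.05 and -0.95 in SFRP5 (-1.01) and -3.79 and 0.56 in WT (4.35). Sesn2, a stress-induced gene, had 1.18 and -0.84 in SFRP5 and -0.47 and 1.06 in WT, and Rmrp, the RNA of a ribonuclease complex, had 1.90 and 0.64 in SFRP5 and 0.85 and 2.17 in WT. These genes were picked for their opposite values, which are given as a description of 4 arrays.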

How the data were processed

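RNA from 4 sorted marrow samples, with 1 array each, was measured on single-colour Agilent arrays with probes annotated on mm9 per the file headers. Per the labels' protocols, total RNA was amplified over the whole transcriptome and labelled with Cy3. In the deposited scanner files, each spot has 1 intensity, background-subtracted by Agilent Feature Extraction (10.10 per the submitters' processing notes, 10.10.1.1 per the file headers). The authors' deposited signal table holds the same intensity times 1 factor per array, on a linear scale, with no account of those factors in the sources used here.

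The log2 of the processed intensity minus the 75th percentile of its array over spots outside the controls was used. Spots with an outlier flag (133 on the SFRP5 LSK array and 128 on the SFRP5 CLP array) were left out, other spots of a probe were averaged, and no spot was saturated. Symbols were updated for 3525 probes through Entrez IDs in the RefSeq table of GRCm38.p6, in which 30994 probes matched. Each gene was represented by its brightest probe on average, also under the other scalings. Above background means the scanner software's own flag. A bound is taken against the higher of the dim probe's signal and the lowest signal well above background on that array. With 1 array per group, differences have no test, p-value or standard error. The scripts were tested on simulated data.

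Promoter windows and their motif matches come from RefSeq sequences of GRCm38.p6, whose coordinates are not those of the arrays' build. Genes with no window there are not described.

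The genes named are the core members of each list, the 2 highest and 2 lowest members of each list, the 12 highest and 12 lowest differences (brighter signal no lower than the 75th percentile of its array, and further probes of the same sign), the 6 highest and 6 lowest bounds, and 6 genes at each end that were 2-fold in opposite directions in SFRP5 and WT; clone and predicted names were left out of the last 3. Other members (Blnk, E2f2, Epb42, Hoxb6, Jag2, Lifr, Notch2, Ppox, Sfrp4, Smad1, Sox6, Spib, Trim10 and Vpreb2) were named after their values were seen. Some genes that the rule names are not reported here. The comparison and the 48 gene lists (1418 of 1437 entries on the array) were chosen with earlier results of these data known, and neighbouring lists share members.

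Alternatives were normexp background correction (offset 50, on the median signal, since the mean signal column was not used here), quantile and cyclic loess normalization, the deposited signals, a median probe difference of 0, no filter on dim probes, genes above background on all 4 arrays, averaging each gene's probes, and a 3-fold threshold. Python 3.11.15, pandas 2.3.3, numpy 2.4.6, matplotlib 3.10.9, R 4.3.3 and limma 3.58.1 were used.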

Additional observations from a re-analysis of the deposited data

Results flagged for a closer look

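For 3 core genes, the CLP and LSK arrays differed by at least 2-fold in opposite directions in the 2 genotypes. C1qc, a chain of complement C1q made by macrophages, differed by -2.55 in SFRP5 and by 1.16 in WT. Id1, an inhibitor of E proteins, differed by -1.03 in SFRP5 and by 1.86 in WT. Ngp, a granule protein of neutrophils, differed by -1.01 in SFRP5 and by 4.35 in WT. These differences between the genotypes were not tested, since each value rests on 1 array per sort. Id1 and Ngp in SFRP5 lie just past 2-fold, and their smallest differences over the settings were -0.66 and -0.79.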

How the results depend on the processing

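No paired analysis was possible because each group has 1 array, and for the same reason no array could be left out. With normexp background correction, 1075 genes reached 2-fold higher and 1012 reached 2-fold lower in SFRP5 CLP. With no filter on dim probes the counts were 3201 and 3076. At 3-fold they were 752 higher and 823 lower. Under the other 6 settings both counts stayed within 1.5 times those reported, and the largest shift in the split was that of the deposited signals. Plcb1 was the named gene past 2-fold whose direction turned, from -1.50 to 2.56 with the mean of its probes; the cause was not tested. Of 252 core genes, 20 changed sign under at least 1 setting. Of the 148 past 2-fold, 1 changed sign and 120 stayed past 2-fold under every setting, the 3-fold threshold not counted. Of 48 list medians, 8 changed sign: T lineage, erythroid transcription factors, mast cell and basophil, megakaryocyte, Wnt antagonists, noncanonical Wnt, ribosomal protein and sex-linked genes. Of the 11 list medians past 2-fold, 0 changed sign and 8 stayed past it. Counts within a list moved by over 1.5 times in several lists. Over the settings, HOX genes at 2-fold lower ran from 4 to 12, TGF-β and BMP genes from 7 to 12, JAK, STAT and SOCS genes from 3 to 9, Notch genes from 4 to 9, noncanonical Wnt genes from 4 to 10, Wnt ligand genes from 2 to 6, Wnt target genes from 3 to 9 and neutrophil granule genes from 3 to 7. Mast cell and basophil genes at 2-fold higher ran from 9 to 18, Wnt target genes from 3 to 8, homing genes from 2 to 6 and MHC genes from 1 to 3. Differences of dim genes are limited by the spread between copies of 1 probe, up to 0.50 log2 at signals more than 4 log2 below the 75th percentile.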

Other observations

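Further lists add to the description of the SFRP5 sorts. Of 8 E protein and Id genes measured on both arrays, 2 were at least 2-fold higher in CLP and 2 lower, with a median of 0.65. Id3, an inhibitor of E proteins, had a signal of -2.75 in LSK and -0.64 in CLP, 4.29-fold higher, and Tcf3, which encodes the E proteins E12 and E47 of early B cells, had 1.25 and 2.07. Of 28 genes of the MYC network and ribosome biogenesis, 4 were higher (1 at the lowest over the 9 settings tried) and 3 lower, with a median of 0.44. Npm1 (6.85 and 7.08) and Ncl (5.64 and 6.19), nucleolar proteins, stayed within 2-fold.

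Of 22 heat shock and stress genes, 7 were higher (3 at the lowest over the 9 settings tried) and 2 lower, with a median of 0.51. Trib3, a target of the amino acid response like Asns, had -4.26 and -1.37, 7.42-fold higher. Of 16 imprinted growth-control genes, 2 were higher and 2 lower, with a median of 0.20; H19 had -2.56 and -2.23, and Igf2r had 2.54 and 2.95. Of 7 lineage antigens measured on both arrays, 3 were higher and 0 lower, with a median of -0.11. The 6 sex-linked genes measured on both arrays had 0 members past 2-fold, and their median of -0.14 changed sign when only genes above background on all 4 arrays were kept.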
